A study of Macaca mulatta with 8 samples.

Results

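The heat shock response was followed in the transcriptomes of primary rhesus macaque microglia through 5 genes. They encode the heat shock factors HSF1 and HSF2, the factor-binding protein HSBP1, the polyubiquitin UBB and, as SERPINH1, the collagen chaperone HSP47. The genes were chosen by name, with the differences between conditions in these libraries known from an earlier analysis. Those differences are therefore given here as a description, and nothing is read from a test of them. Each name had 1 row in the count files, giving 5 of 35432 genes, and all 5 passed the filter on low counts, which left 12131 genes.

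Microglia, the resident macrophages of the brain, were cultured from subcortical white matter of 4 adult rhesus macaques, in medium with serum and M-CSF. On day 7 of the culture they were exposed to 10 µg/mL uLPS, an agonist of TLR4, for 16 h, either alone or after 1 h of pre-incubation with 5 µM MRS2578, an antagonist of the UDP receptor P2RY6. Donors R07110 and R12016 were male, and R02046 and R14143 female, each giving 1 library per condition and 8 libraries in all. All libraries received uLPS, so no resting level is known, and the labels name no vehicle for the cells that received uLPS only. The study reports DMSO controls for every assay with MRS2578, and no induction of heat shock proteins by DMSO in data not shown. It does not name the solvent for these libraries one by one. The comparison asks how the RNA levels of uLPS-exposed cells differ in the presence of MRS2578, and here it sets the factors beside 2 known targets of HSF1. The study describes the compound as selective but not entirely specific, and P2RY6 activity was not measured in these libraries. Each donor is an outbred animal with 1 library per condition, so the spread between donors also holds the spread between cultures.

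Total counts ran from 9231109 to 32790348 per library. Summed markers of microglia ran from 3467 to 5303 CPM (reads scaled to library size by edgeR's TMM method), with CSF1R, CD68 and ITGAM at means of 1247, 1059 and 745 CPM, whereas TMEM119 and CX3CR1 were at means of 0.0904 and 0.392 CPM and did not pass the filter. Markers of fibroblasts or mural cells summed to between 155 and 1336 CPM, those of oligodendrocytes to between 223 and 407, of astrocytes to between 88.7 and 205, of endothelial cells to between 179 and 332 and of lymphocytes to at most 0.518 CPM. Within these lists the means ran from 0.0414 CPM for a row of MOBP to 204 for CNP in oligodendrocytes, from 0.335 for ALDH1L1 to 53.7 for SLC1A3 in astrocytes, and from 0.0440 for CLDN5 to 142 for PECAM1 in endothelial cells. The 2 libraries of donor R02046 carry opposite conditions in the sample labels and in the supplementary table of CPM values, in which 6 of the 8 columns match a library of the same donor and condition and the 2 of R02046 match each other's. Values are given with the deposited labels, and where stated also with the R02046 libraries exchanged or left out. Values given once hold for the deposited labels only. Exchanging the libraries turns the sign of each difference in R02046.

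In the heat shock response, HSF1 is held inactive by chaperones and, when unfolded proteins engage those chaperones, forms trimers that bind heat shock elements, arrays of the unit GAA in alternating orientation, in front of chaperone genes. HSF2 is a related factor that can form mixed trimers with HSF1, and HSBP1 is a small coiled-coil protein that binds to the trimerization domain of HSF1. HSF1 is regulated largely at the level of the protein rather than of its RNA. UBB carries several ubiquitin units in a row and supplies ubiquitin under stress, and HSP47 is an endoplasmic reticulum protein that binds procollagen during its folding; both genes are known targets of HSF1.

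The windows of 300 bases in front of the annotated gene starts are shown for SERPINH1, HSF2 and HSBP1, since heat shock factors are known to bind such letters in front of their targets. They were read from the macaque genome build Mmul_10, each 5′ to 3′ on the strand of the gene, and end at the base before the most upstream annotated start. Capitals mark the GAA and TTC units of each match to GAANNTTC or TTCNNGAA, which are both their own reverse complement, so that 1 search covers both strands.
SERPINH1, chr14:68629163-68629462, plus strand: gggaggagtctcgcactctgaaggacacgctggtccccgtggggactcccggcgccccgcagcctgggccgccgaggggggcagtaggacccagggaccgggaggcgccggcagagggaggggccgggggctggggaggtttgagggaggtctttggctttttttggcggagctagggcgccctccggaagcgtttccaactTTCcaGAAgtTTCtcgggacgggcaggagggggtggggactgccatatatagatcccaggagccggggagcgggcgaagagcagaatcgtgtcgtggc
HSF2, chr4:25941185-25941484, plus strand: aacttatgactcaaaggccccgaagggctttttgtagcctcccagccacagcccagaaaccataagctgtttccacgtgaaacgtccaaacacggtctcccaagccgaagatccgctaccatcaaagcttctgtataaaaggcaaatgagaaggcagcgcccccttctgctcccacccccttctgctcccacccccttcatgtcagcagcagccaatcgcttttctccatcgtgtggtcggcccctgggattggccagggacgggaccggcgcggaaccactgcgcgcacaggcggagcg
HSBP1, chr20:70821658-70821957, plus strand: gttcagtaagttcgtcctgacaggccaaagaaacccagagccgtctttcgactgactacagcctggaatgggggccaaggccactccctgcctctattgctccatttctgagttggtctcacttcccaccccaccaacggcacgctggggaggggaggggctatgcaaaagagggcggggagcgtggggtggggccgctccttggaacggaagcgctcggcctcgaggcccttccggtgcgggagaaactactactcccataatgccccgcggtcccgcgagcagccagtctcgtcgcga
The SERPINH1 window held both motifs, which share their inner unit and so form 3 alternating units between 98 and 86 bases before the start. Those of HSF2, HSBP1 and HSF1 held none. Among 20769 windows of all genes, 6.25% held GAANNTTC, 6.74% held TTCNNGAA, 12.1% held either and 0.419% held 3 alternating units. A match is a description of the letters, not a bound site, and a window without a match says nothing on binding. The SERPINH1 gene model is annotated as partial, so the distances depend on the annotation.

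HSF1 (ENSMMUG00000014728; chromosome 8, 144574183 to 144601498, plus strand), the main factor of the heat shock response, was present in all libraries at a narrow range of levels. With uLPS it was at 72.5, 76.5, 58.5 and 68.0 CPM in R07110, R12016, R02046 and R14143, and with uLPS and MRS2578 at 67.6, 61.4, 55.4 and 58.2 CPM in the same order of donors. It was thus lower with MRS2578 in each donor as labelled, but the ranges of the conditions overlapped. The mean was 68.9 ± 7.74 CPM with uLPS and 60.6 ± 5.24 CPM with MRS2578 (SD, n = 4). The within-donor differences on the log2 CPM scale were -0.10, -0.32, -0.08 and -0.22, and the fitted log2 fold change was -0.18 (SE 0.09). In all, 6.49% of the 12131 genes were lower with MRS2578 in all 4 donors and 6.43% were higher in all 4. With the R02046 libraries exchanged the fitted value of HSF1 was -0.14 (SE 0.10), with 3 donors lower and 1 higher, and without that donor -0.21 (SE 0.10).

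HSF2 (ENSMMUG00000007910; chromosome 4, 25941485 to 25979377, plus strand), which takes part in development as well as stress, was present at low levels. It was at 11.6, 9.89, 10.8 and 13.1 CPM in R07110, R12016, R02046 and R14143 with uLPS, and at 9.46, 13.8, 11.99 and 13.5 CPM with uLPS and MRS2578. The lowest and the highest level of the 8 libraries were both among those with MRS2578. The within-donor log2 differences were -0.30, 0.47, 0.15 and 0.05, so their SD of 0.32 was larger than their mean of 0.10. The fitted log2 fold change was 0.09 (SE 0.16), 0.02 (SE 0.16) with the R02046 libraries exchanged and 0.07 (SE 0.19) without them. All values of HSF2 rest on 101 to 382 reads per library.

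HSBP1 (ENSMMUG00000020115; chromosome 20, 70821958 to 70826974, plus strand) was at 46.1, 50.0, 61.4 and 43.9 CPM in R07110, R12016, R02046 and R14143 with uLPS. With uLPS and MRS2578 it was at 46.6, 51.6, 52.3 and 42.3 CPM. R07110, R12016 and R14143 kept about their own levels, whereas R02046 as labelled was lower with MRS2578. The conditions overlapped. The within-donor log2 differences were 0.01, 0.05, -0.23 and -0.05, with a fitted value of -0.06 (SE 0.10) that was 0.06 (SE 0.09) when the R02046 libraries were exchanged.

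Per kilobase of exon, the scale on which levels of different genes can be compared, HSF1 was at 29.1 ± 3.27 CPM per kb, HSBP1 at 26.7 ± 4.12 and HSF2 at 4.46 ± 0.53 with uLPS (SD, n = 4). HSF1 and HSBP1 did not differ beyond their spread, and HSBP1 was the higher of these in both R02046 libraries and 1 of R12016. UBB stood above them at 283 ± 94.0, and SERPINH1, at 16.6 ± 14.8, was not apart from HSF1, HSBP1 or HSF2 given its spread. HSF2 was below HSF1 in 8 of 8 libraries. Averaged over the conditions within each donor, HSF1 was 5.92-fold higher than HSF2, a log2 difference of 2.57 ± 0.22 (SD, n = 4) that ran from 2.34 to 2.84 (two-sided exact permutation test by sign changes over the donors, p = 0.125, the smallest that 4 donors allow). Among the 10859 genes that could be ranked per kilobase, HSF1 lay between the percentiles 75.8 and 81.8, HSBP1 between 75.5 and 81.7 and HSF2 between 32.4 and 40.6. The other family members HSF4 and HSF5 were at means of 0.0776 and 0.00798 CPM and were not tested.

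UBB (ENSMMUG00000023316; chromosome 16, 16007553 to 16009566, minus strand) had the highest level of the 5 genes per kilobase of exon in every library. With uLPS it was at 309, 390, 649 and 412 CPM in R07110, R12016, R02046 and R14143. With uLPS and MRS2578 it was at 1099, 2013, 429 and 367 CPM. The MRS2578 libraries of R07110 and R12016 stood above the 6 others, whereas those of R02046, as labelled, and R14143 lay among the uLPS libraries, so the conditions overlapped. The level with MRS2578 was 3.55-fold that with uLPS in R07110 and 5.17-fold in R12016, log2 differences of 1.83 and 2.37, against -0.60 in R02046 as labelled and -0.16 in R14143. Of the 12131 genes, 73 had a larger rise than UBB in R07110 and 151 in R12016. The fitted log2 fold change was 0.86 (SE 0.53), 1.16 (SE 0.38) with the R02046 libraries exchanged and 1.37 (SE 0.49) without them. It was 0.48 without R07110 and 0.33 without R12016. UBB is made of near-identical repeats and has copies elsewhere in the genome, so its counts depend on how shared reads were treated. The study's methods describe counting only unique reads within exons. The submitters' processing notes name other tools, and which of these made the files is unknown.

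**Figure D1:**
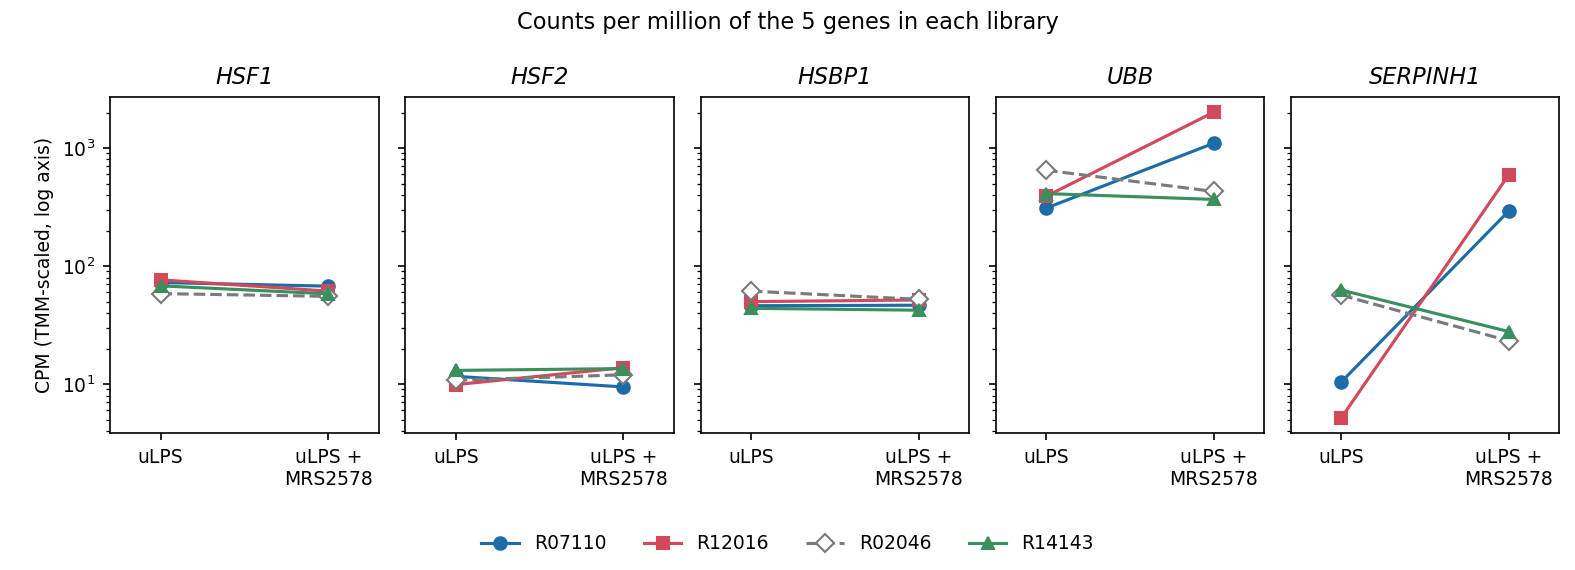
TMM-scaled CPM (log axis) of HSF1, HSF2, HSBP1, UBB and SERPINH1 in each library, with a line joining the libraries of 1 donor; R02046, whose labels are in doubt, is drawn open and dashed. The lines of HSF1, HSF2 and HSBP1 move by at most 0.47 in log2 CPM, reached by HSF2 in R12016. UBB and SERPINH1 climb in R07110 and R12016 and are lower with MRS2578 in R02046 and R14143. For UBB in R14143 the difference is only -0.16, smaller in size than some of the factors.

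SERPINH1 (ENSMMUG00000007675; chromosome 14, 68629463 to 68639949, plus strand) varied most. With uLPS it was at 10.4, 5.17, 56.7 and 62.7 CPM in R07110, R12016, R02046 and R14143. With uLPS and MRS2578 it was at 294, 596, 23.3 and 27.8 CPM. The lowest pair of libraries and the highest pair came from the same donors, R07110 and R12016, and the levels of R02046 and R14143 lay between them in both conditions. The highest level was 115-fold the lowest, against 6.51-fold for UBB and at most 1.46-fold for the other 3 genes. In reads, the contrast was 342 against 7267 in R07110 and 81 against 9423 in R12016.

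The level of SERPINH1 with MRS2578 was 27.9-fold that with uLPS in R07110 and 113-fold in R12016, log2 differences of 4.80 and 6.82. In R02046, as labelled, and in R14143 the log2 differences were -1.28 and -1.17, levels 2.43-fold and 2.25-fold lower with MRS2578. These values lie near opposite ends of the distribution over genes, since only 4 of the 12131 genes rose more in R07110 and 3 in R12016, while R02046 and R14143 were at the percentiles 1.87 and 3.36. The fitted log2 fold change was 2.14 (SE 1.98), 2.95 (SE 1.36) with the R02046 libraries exchanged and 3.97 (SE 1.87) without them. It was 0.36 without R07110, 0.32 without R12016 and 4.09 without R14143. The exchange leaves R14143 as the only donor with less SERPINH1 in the presence of MRS2578. Per kilobase, SERPINH1 was below HSF1 in the uLPS libraries of R07110 and R12016, at 0.167 and 0.0788 of its level, and above it in their MRS2578 libraries, at 5.07 and 11.3 times its level.

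HSP47 acts on collagens, so the 12 collagen chains listed were read beside it. Their summed level went from 204 to 340 CPM in R07110, from 146 to 335 in R12016, from 422 to 670 in R02046 as labelled and from 1539 to 537 in R14143. The log2 ratios were 0.73, 1.20, 0.67 and -1.52, so the chains and SERPINH1 had the same sign in 3 donors and opposite signs in R02046. The summed markers of fibroblasts or mural cells went from 223 to 311 CPM, from 155 to 292, from 474 to 632 and from 1336 to 505 in the same order, with log2 ratios of 0.48, 0.92, 0.41 and -1.40. This list shares COL1A1, COL1A2 and COL3A1 with the collagen chains. They had the highest means of the list, 154, 111 and 68.7 CPM, so the sums of both lists are not independent. Of its 12 markers 11 passed the filter, and RGS5, a pericyte marker, was at a mean of 0.0284 CPM. In bulk RNA, fewer cells of a type and less RNA per cell cannot be told apart, and the part of such cells in the level of SERPINH1 was not tested.

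**Figure D2:**
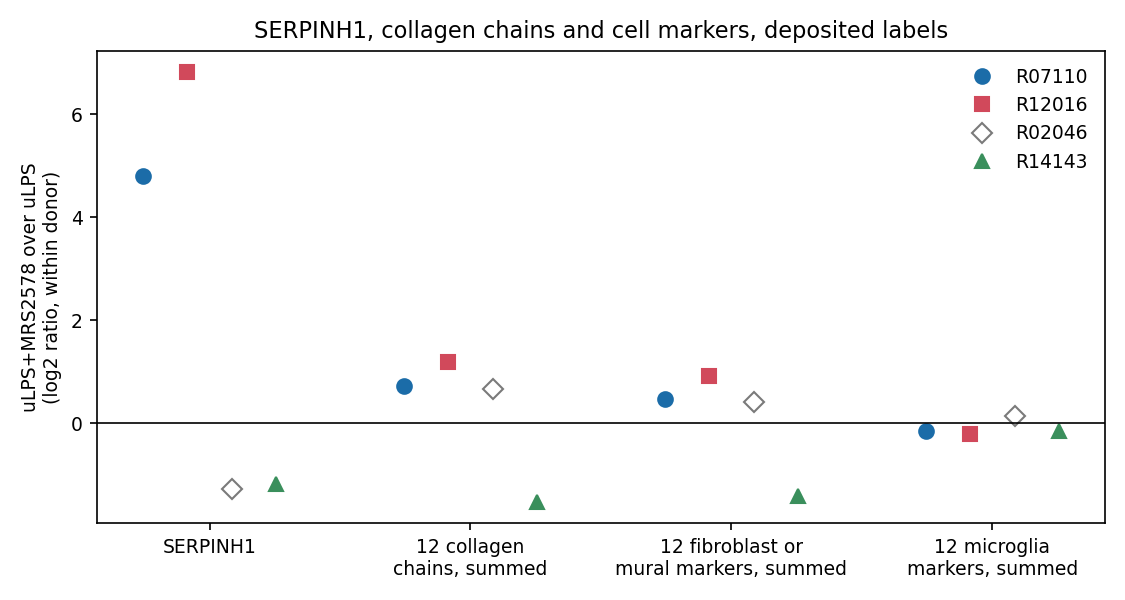
Log2 ratio of uLPS and MRS2578 over uLPS within each donor, with the deposited labels, for SERPINH1 and for the summed levels of the collagen chains, the markers of fibroblasts or mural cells and those of microglia. SERPINH1 reaches 4.80 and 6.82 in R07110 and R12016, where the collagen chains are at 0.73 and 1.20, and in R14143 SERPINH1, the chains and the fibroblast or mural markers are all below -1. The chains and the fibroblast or mural markers share COL1A1, COL1A2 and COL3A1.

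The factor genes were next set against the target genes. Single differences of the factors reached -0.32 for HSF1 and 0.47 for HSF2, both in R12016, and exceeded in size that of UBB in R14143, -0.16. The mean log2 difference of HSF1, HSF2 and HSBP1 was -0.13, 0.07, -0.05 and -0.08 in R07110, R12016, R02046 and R14143. The mean of UBB and SERPINH1 exceeded that of the factors by 3.44 and 4.53 in R07110 and R12016, and was below it by 0.89 and 0.59 on the log2 scale in R02046 and R14143. Over the 4 donors the excess was 1.62 ± 2.77 (SD), smaller than its spread, and with the R02046 libraries exchanged it was 2.07 ± 2.34. Leaving out 1 donor moved it between 0.66, without R12016, and 2.46, without R02046. Over the 8 libraries, the log2 levels of UBB and SERPINH1 had a Pearson r of 0.90. With UBB, HSF1 had an r of -0.21, HSF2 of 0.03 and HSBP1 of 0.32. With SERPINH1 the values were -0.34, 0.21 and 0.10 in the same order. The MRS2578 libraries of R07110 and R12016 were the highest of all for both UBB and SERPINH1. The libraries come in pairs from 4 donors, and the genes were chosen with the differences between conditions known. These correlations are therefore descriptions, and nothing is read from them.

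**Figure D3:**
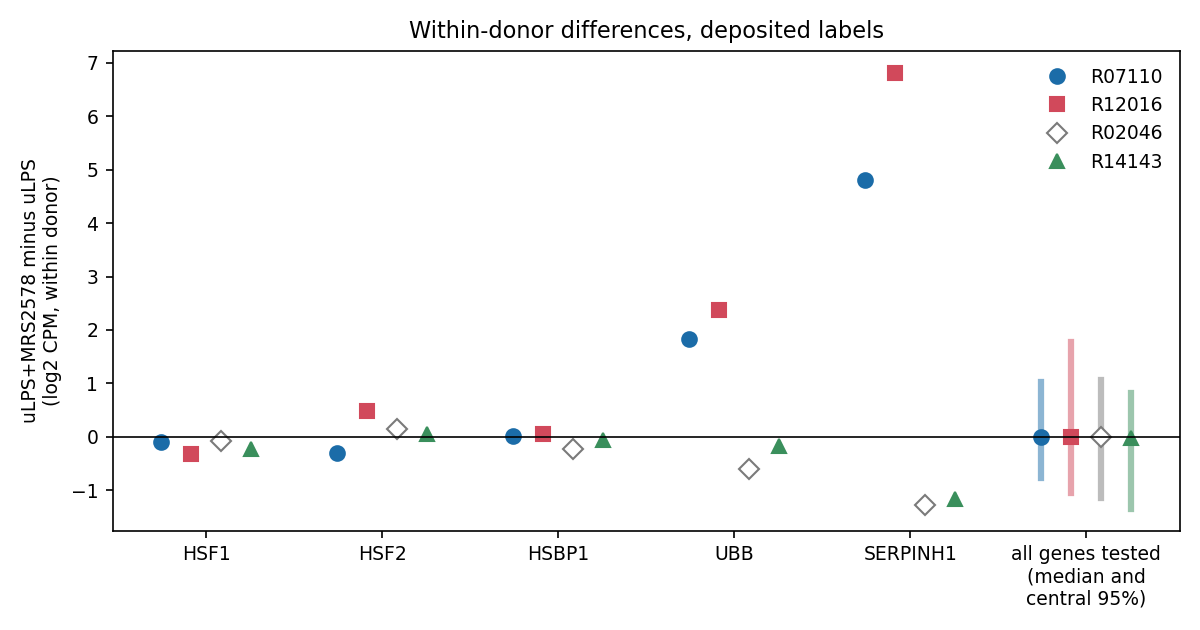
Within-donor difference in log2 CPM between uLPS with MRS2578 and uLPS alone, with the deposited labels, for the 5 genes and for all 12131 genes tested, shown by their median and the span of the central 95%. The points of HSF1, HSF2 and HSBP1 lie inside these spans in all 4 donors, and those of UBB and SERPINH1 in R07110 and R12016 lie above them, while SERPINH1 in R02046, at -1.28, lies below the span of that donor.

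Across all genes, the quasi-likelihood test of edgeR, blocked by donor, called 0 of 12131 genes (0.0%) for MRS2578 with the deposited labels at an adjusted p of 0.05, with 624 at an unadjusted p under 0.05 and 1 called by DESeq2. It called 0.618% with the R02046 libraries exchanged and 0.0% of 12295 genes without them, with 1670 of these at an unadjusted p under 0.05. In the lists of pathway genes and markers read here, the astrocyte glutamate transporter SLC1A2 was the only gene called, at -1.22 with the exchange (edgeR, adjusted p = 0.0328). Of the 5 genes, 0 were called under any of these 3 assignments in edgeR's test. The ranges of the conditions were apart in 1.08% of the genes with the deposited labels and in 2.97% with the R02046 libraries exchanged, and in 0 of the 5 genes under both. The 5 genes were chosen with this contrast known, so nothing is read from their calls or ranges.

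The donors were compared as the donor term of the same edgeR fit, which called 7.35% of the 12131 genes and 0 of the 5. The residual of this fit is the spread of the differences between conditions over the donors, with which the 5 genes were chosen, so nothing is read from that count. For HSF1, HSF2 and HSBP1 the donor means spanned 0.30, 0.34 and 0.39 on the log2 scale. For UBB they spanned 1.19, beside a median absolute difference of 1.21 between the conditions within a donor, and for SERPINH1 0.62, beside one of 3.04.

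The chaperones that HSF1 is known to activate were read from a list of 20 genes, of which 17 were found by symbol with 18 rows tested, HSPE1 having 2 tested. Of these rows 18 had a positive fitted log2 fold change with MRS2578 under each of the 3 assignments, 0 were called, and the median was 0.73 against -0.01 over all genes. It was 0.74 with the R02046 libraries exchanged and 0.94 without them. By donor, 18 of 18 were higher in R07110, 18 in R12016, 1 in R02046 as labelled and 14 in R14143, where 50.2%, 49.8%, 49.8% and 46.7% of all genes were higher. R14143 is therefore the donor in which most of the listed chaperones were higher with MRS2578 while UBB and SERPINH1 were lower. Of the list's genes 19 had a window in front of their start, and 8 of these held GAANNTTC or TTCNNGAA and 4 held 3 alternating units.

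The small heat shock protein HSPB1 had the highest fitted value of this list, 2.11 (SE 1.35), with within-donor log2 differences of 4.37, 4.71, -1.85 and 0.51 in R07110, R12016, R02046 and R14143. BAG3, a cochaperone of HSP70 in selective autophagy, was next at 2.00 (SE 1.19), with 3.66, 4.68, -1.83 and 0.83. The lowest were 1 row of the mitochondrial cochaperonin HSPE1 at 0.05 (SE 0.11) and AHSA1, which stimulates the ATPase of HSP90, at 0.26 (SE 0.17). The other tested row of HSPE1, at a mean of 3.56 CPM and so outside this ranking, was at 0.80 (SE 0.36). SERPINH1 exceeded HSPB1 in R07110 and R12016, and UBB lay below HSPB1 and BAG3 in both.

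**Figure D4:**
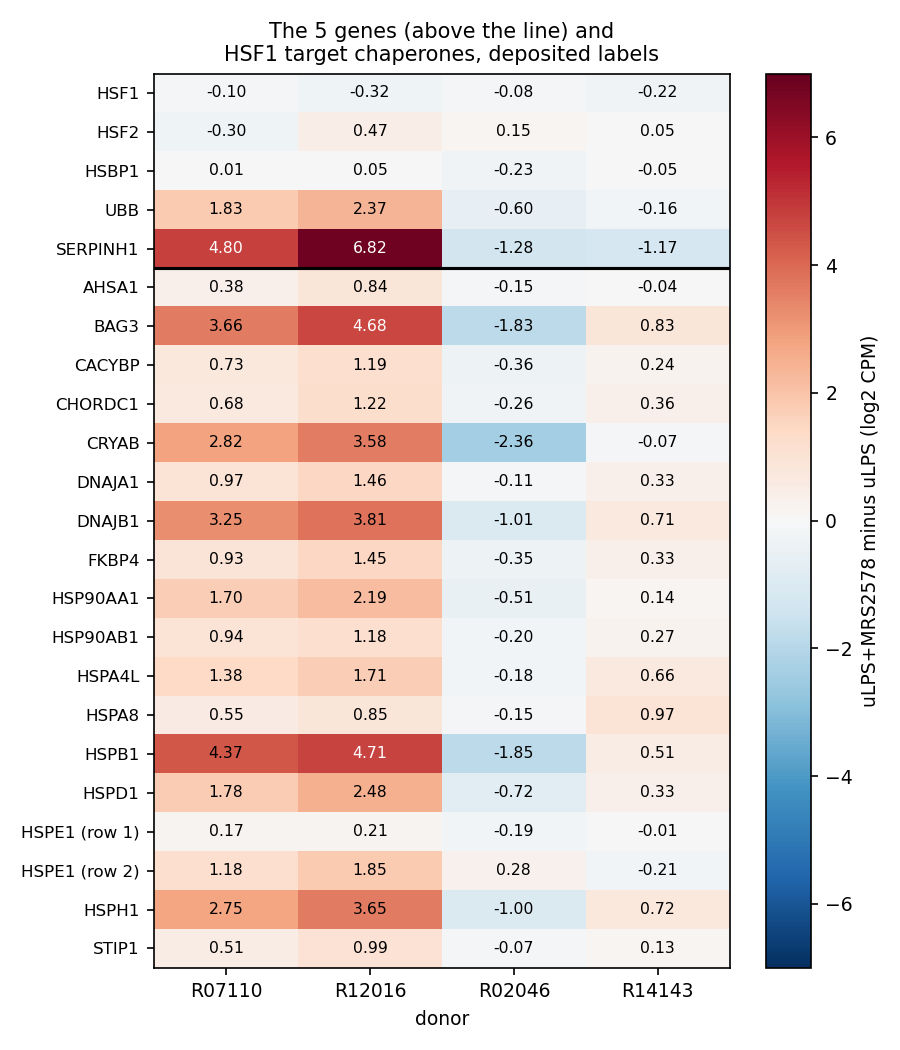
Within-donor difference in log2 CPM between uLPS with MRS2578 and uLPS alone, with the deposited labels, as colour and number for the 5 genes (above the line) and the 18 tested rows of the HSF1 target chaperones. The chaperones are positive throughout in R07110 and R12016 and negative in R02046 with 1 exception, and in R14143 BAG3, HSPA8 and HSPH1 are positive at 0.83, 0.97 and 0.72 where SERPINH1 is at -1.17.

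Regulators and partners of the heat shock factors were read as a list of 26. All were tested, 14 had a positive and 12 a negative fitted value, 0 were called, and the median was 0.01. By donor, 13, 16, 14 and 13 were higher with MRS2578 in R07110, R12016, R02046 and R14143. The highest were DNAJB1, a cochaperone of HSP70 that is itself an HSF1 target, at 1.75 (SE 0.87) and HSP90AA1, which holds HSF1 inactive, at 0.88 (SE 0.47). The lowest were PLK1, a mitotic kinase that phosphorylates HSF1, at -0.29 (SE 0.16) and HDAC6, a deacetylase that senses ubiquitinated proteins, at -0.20 (SE 0.14). DNAJB1, HSP90AA1, HSP90AB1, HSPA8 and FKBP4, each with a positive fitted value, stand both in this list and in that of the HSF1 target chaperones. The regulator list also holds HSBP1.

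Ubiquitin activation and recycling genes had fitted values on both sides of 0. Of the 12 tested, 6 had a positive and 6 a negative fitted value, with 0 called and a median of 0.01, and 5, 6, 6 and 7 were higher in the donors in the same order. The highest was UCHL1, a ubiquitin hydrolase, at 0.37 (SE 0.34), with 0.73, 1.57, -0.58 and -0.20 in R07110, R12016, R02046 and R14143, and next the deubiquitinase USP5 at 0.16 (SE 0.11). USP25 and the ubiquitin-activating enzyme UBA6 were the lowest, at -0.22 (SE 0.15) and -0.15 (SE 0.14).

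The list of genes that fold and modify collagen in the endoplasmic reticulum holds SERPINH1 itself. Of its 18 rows 9 had a positive and 9 a negative fitted value, 0 were called, and the median was 0.00. By donor, 13, 12, 7 and 6 of the 18 were higher with MRS2578 in R07110, R12016, R02046 and R14143. After SERPINH1 the highest was P4HA1, a subunit of prolyl 4-hydroxylase, at 0.24 (SE 0.18), with log2 differences of 0.80, 0.52, -0.17 and -0.18. Among genes with a mean of at least 10 CPM, the prolyl 3-hydroxylase P3H2 and the lysyl hydroxylase PLOD1 were the lowest, at -0.17 (SE 0.17) and -0.10 (SE 0.10). FKBP14, at a mean of 4.67 CPM and so outside this ranking, was at -0.42 (SE 0.32). Among the collagen chains 11 were tested, of which 10 had a positive and 1 a negative fitted value with a median of 0.30, and this turned to 3 and 8 with a median of -0.07 when the R02046 libraries were exchanged. By donor, 11, 11, 9 and 0 of the 11 were higher. The basement membrane chains COL4A1 and COL4A2 were the highest, at 0.77 (SE 0.63) and 0.58 (SE 0.56). Among chains with a mean of at least 10 CPM, COL6A2 and COL5A2 were the lowest, at 0.01 (SE 0.36) and 0.18 (SE 0.43). COL8A1, the chain with a negative value, had a mean of 4.09 CPM and was at -0.39 (SE 0.41). Of the chains 0 were called.

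Over the 8 libraries and 8177 genes with a symbol and a mean of at least 10 CPM, the genes whose log2 level was most like that of HSF1 were HEXD, PLK3 and IGFLR1, with a Pearson r of 0.976, 0.944 and 0.936. Those most like HSF2 were RABGAP1 at 0.885, GABPA at 0.836 and FAM210A at 0.83, and those most like HSBP1 were SRSF11, DRAP1 and IER3IP1, at 0.982, 0.980 and 0.977. UBB was closest to C3H7orf50 at 0.995, MAPK8IP1 at 0.986 and HSPA5, the chaperone BiP of the endoplasmic reticulum, at 0.984. SERPINH1 was closest to ABHD5 at 0.979, CYTH2 at 0.962 and YIPF3 at 0.958. With so few libraries and so many genes the highest correlations are high by selection, and the values are descriptions only.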

How the data were processed

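The deposited values are whole-number read counts per Ensembl gene, made by the authors from poly(A) RNA-seq. The study's methods name fastp, STAR, SAMtools and HTSeq with the macaque genome Mmul_10. The submitters' processing notes name Trimmomatic 0.30, TopHat2 2.0.14, SAMtools 1.3 and HTSeq 0.6.1p1 instead, and which made the files is unknown. The annotation release and strand setting are not given in the sources used here, so overlapping genes and near-identical copies have uncertain counts. A gene without symbol in the files was named from its Ensembl ID for 577 rows, and HSPA1A, HSPA1B and HSPA6 were not matched.

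Counts were analysed in R 4.3.3 with edgeR 4.0.16 (filterByExpr with a minimum count of 10, TMM, quasi-likelihood F-test, donor as a block, Benjamini-Hochberg adjustment), with limma 3.58.1 loaded and DESeq2 1.42.0 as an alternative, and in Python 3.11.15 with pandas 2.3.3 and SciPy 1.17.1. SE is that implied by the test. Log2 CPM has a prior count of 2. The test was checked on simulated data. For MRS2578 these held the same changes in every donor and no other donor differences. Responses that differ between donors were therefore not covered. Both libraries of a donor come from 1 animal, and their deviations from the condition means correlated at 0.60, 0.55, 0.46 and 0.56. No 2 libraries were duplicates.

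Positions, exon lengths and sequences come from the NCBI annotation and genome of Mmul_10. The 5 genes and the gene lists were chosen with earlier results of these data known. Some genes and sequences that the rule for named genes covers are not reported here. Named besides the 5 are the 2 highest and 2 lowest fitted values of each pathway list among genes with a mean of at least 10 CPM. The 3 genes of highest Pearson r to each of the 5 are also named. Named after their values were seen were BAG3, HSPA8 and HSPH1 in R14143, the absent family members and the cell markers. The same holds for FKBP14 and COL8A1, below that mean, and for the further genes that the regulator and chaperone lists share. Marker lists are given as ranges, with every marker called named. Alternatives were DESeq2's size factors and test, no filter, no block, a prior count of 0.25, no scaling beyond library size, HSF1 and HSF2 only as factors, and each donor left out. The exchange of the R02046 libraries was planned; edgeR's earlier estimation, the longest transcript as length and the lists under the exchange were added after seeing the data. Samples were grouped by their labels.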

Additional observations from a re-analysis of the deposited data

How the results depend on the processing

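With MRS2578, the count of genes called was 0 under 8 of the 10 alternatives, including the fit with no replicate block, and 1 in the DESeq2 test and 75 with the R02046 libraries exchanged. Leaving out 1 donor gave 0 each time. The donor effect, 892 genes, was 2468 in the DESeq2 test and 2288 with the exchange, and between 333 and 909 when 1 donor was left out (333 without R12016, 408 without R14143, 421 without R07110); the other settings gave 770 to 894. None of the 5 genes was called for donor or MRS2578 under any alternative run. They were chosen with the differences between conditions known, so nothing is read from their calls, with or without the block. The fitted log2 fold change of SERPINH1 ran from 0.32 to 4.09 and that of UBB from 0.33 to 1.37 when 1 donor was left out, HSF1 stayed negative from -0.21 to -0.13, and HSF2 and HSBP1 changed sign, from -0.04 to 0.22 and from -0.08 to 0.06 over all settings. Pairing by donor is part of the main design, and dropping the block changed no call of the 5 genes. The cause of these shifts was not tested. Depth was lowest for SERPINH1, at 81 reads in the uLPS library of R12016, on which its 113-fold value rests, and for HSF2, at 101 reads in 1 library.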
